A study of Mus musculus with 2 samples.

Results

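Immunoglobulin heavy and light chain RNA was compared between 2 cultured mouse B-cell lymphomas, one labelled Cdk4+/+:Eµ-Myc and one labelled Cdk4-/-:Eµ-Myc. The probe sets described here are those whose platform gene symbol, or any of whose symbols, starts with Igh, Igk or Igl, leaving out Ighmbp2 and Igll1. The rule found 58 of the 45101 probe sets of the array, under 29 gene symbols that fit it. Of the 58, 2 belong to Iglon5, which encodes a neural adhesion molecule and not an immunoglobulin heavy or light chain, and these read between 4.19 and 16.7 on both arrays. The other 56, under 28 symbols, fell into 23 heavy chain, 29 kappa and 4 lambda probe sets, and all statements below concern these 56.

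Both lymphomas carry the Eµ-Myc transgene, in which the enhancer of the immunoglobulin heavy chain locus drives Myc in B-lineage cells. Per the labels, both came from lymph nodes, were cultured before RNA extraction, and differ in genotype by the presence or absence of Cdk4, the cyclin-dependent kinase of the G1 phase. Each genotype was measured on 1 array, so there is no replicate, no standard error and no test, and a difference between genotypes cannot be told apart from a difference between any pair of lymphomas. Whether the cultures were single clones or pools of animals is not stated in the labels.

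An immunoglobulin chain is encoded by a gene that each B cell assembles for itself. In the heavy chain locus a variable (V), a diversity and a joining segment are cut and joined upstream of the constant regions, of which Ighm (IgM) is used first and Ighg and Igha (IgG and IgA) only after class switching. In the light chain loci a V and a J segment are joined, usually in kappa first and in lambda when kappa rearrangement has not given a working chain. The promoter of a rearranged V segment comes under the locus enhancers, so a B-cell clone makes abundant RNA from the few V segments that it joined. A lymphoma that descends from 1 cell therefore usually carries its own set of V segments, whereas the constant region RNA is common to all cells of that isotype.

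Signals are MAS5 intensities on a linear scale, brought to a common trimmed mean of 500. A floor of 62.2, the median of all signals of both arrays without the 64 control probe sets, stood in for detection. Where both signals of a probe set exceed the floor the fold is measured; where only 1 does, the floor replaces the other and the fold is a lower bound ("at least"). Differences are the null-labelled array minus the wild-type-labelled array on the log2 scale. Over 3086 genes with a pair of unshared probe sets measured on both arrays, the per-probe-set SD of the log2 difference was 0.31, and in 95% of these genes the pair lay within 0.84 of each other. This covers probe set error only. Probe set names that end in a, s, x or f before _at mark probes that share sequence with other transcripts, and 27 of the 56 are of this kind. Signals of different probe sets are not amounts on a common scale, so each immunoglobulin probe set is compared only with itself on the other array. Signals summed over a list of markers rest mostly on its brightest probe sets and are not amounts of a cell type.

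The labels and the cells were checked first. The 3 Cdk4 probe sets read 1.18 to 3.71 on the wild-type-labelled array and 4506 to 6958 on the null-labelled array, which goes against the labels. Every direction below follows the labels as given and would turn if they were exchanged. All 9 pan-B markers measured, among them Cd79a, Ms4a1 and Pax5, were above the floor on both arrays, and none differed by 2-fold. Of 11 T and NK markers, 8 were below the floor on both arrays, among them Cd3d, Cd3e and Cd3g. The other 3 were Zap70, at 264 and 369, Cd8a, at 81.6 and 63.7, and Cd5, above the floor only on the null-labelled array, at 25.8 and 74.3. Macrophage, granulocyte and dendritic markers were above the floor for 3 of 13 genes on the wild-type-labelled array and 7 of 13 on the null-labelled array. Their summed signals were 378 and 4101, the latter mostly from Lyz1 and Lyz2. Lyz1 was at least 30.4-fold, Lyz2 19.5-fold, Csf1r 2.58-fold and C1qa at least 2.24-fold higher on the null-labelled array, and 0 were lower at 2-fold. The granulocyte genes Mpo, Elane, S100a8 and S100a9 were below the floor on both. Stromal and endothelial markers were above it for 5 and 6 of 10, with sums of 4889 and 7234 that rest mostly on Vim. Of these, Col1a2 was 6.91-fold, Col3a1 at least 4.60-fold, Sparc at least 2.77-fold and Col1a1 at least 2.41-fold higher on the null-labelled array, Pdgfra and Pdgfrb were below the floor on both, and Cdh5 and Kdr were above it only on the wild-type-labelled array. The part of these cells in the differences below was not tested, and in RNA from a whole culture fewer cells with a transcript and less transcript per cell cannot be told apart.

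Both arrays showed IgM heavy chain and kappa light chain RNA at high signal, while lambda and Igkv6-14 signals were bright only on the wild-type-labelled array and a pair of heavy chain probe sets was higher on the null-labelled array. Of the 56 probe sets, 16 (28.6%) were above the floor on each array, 11 of them on both, 5 on 1 array only in each direction, and 35 on neither. Over all 45037 probe sets without controls, 50.1% and 49.9% were above it, a share set by the choice of the median as floor. Of these, 3.68% exceeded it only on the wild-type-labelled array, 3.49% only on the null-labelled array, and 20905 on neither. At 2-fold or more, 3 immunoglobulin probe sets were higher on the null-labelled array (2 measured, 1 bound) and 8 were lower (3 measured, 5 bounds). Over all 24132 probe sets above the floor on at least 1 array, 4.77% were higher and 3.86% lower by 2-fold. Among the 20905 measured on both arrays the shares were 3.53% higher and 3.22% lower, and among bounds 26.3% and 15.6% reached 2-fold. Of the 21 immunoglobulin probe sets above the floor on an array, those above it on only 1 array could lie only on that side. Their median log2 difference was -0.61, beside -0.01 over all probe sets taken in the same way. By locus the medians were -0.13 over 5 heavy chain, -0.56 over 12 kappa and -6.83 over 4 lambda probe sets.

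**Figure D1:**
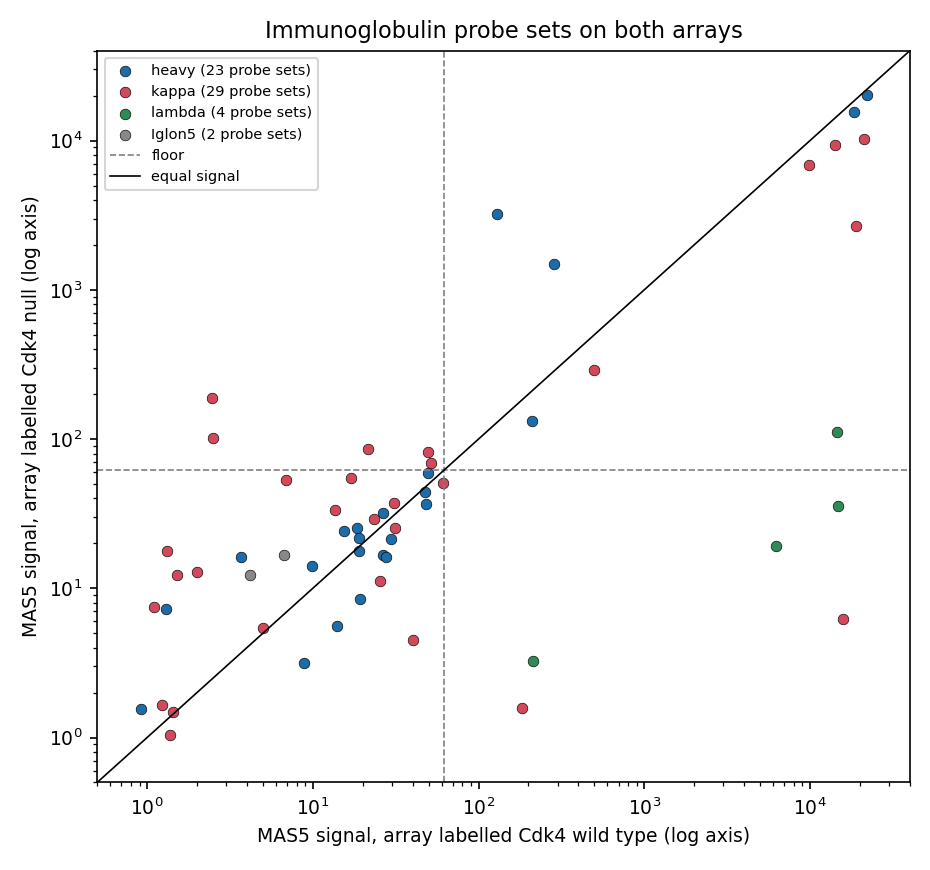
Each point is 1 of the 58 probe sets, with its MAS5 signal on the wild-type-labelled array on the x axis and on the null-labelled array on the y axis, both log axes; the dashed lines mark the floor of 62.2 and the solid line equal signal. The 4 lambda probe sets (green) and Igkv6-14, at 15877 against 6.25, lie far below the line, 2 bright heavy chain probe sets (blue) lie near its upper end, and 35 immunoglobulin probe sets lie below the floor on both arrays.

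The IgM constant region was bright on both arrays and differed by less than the spread between probe sets. Ighm, which encodes the mu chain, has 11 probe sets of its own. The 1427329_a_at set read 21937 on the wild-type-labelled array and 20103 on the null-labelled array. The 1427351_s_at set read 18345 and 15648. Both stood above more than 99% of all probe sets on each array (99.5% to 99.8%), and their log2 differences were -0.13 and -0.23. Under quantile normalization, which lifted the brightest probe sets of the null-labelled array, the same differences were 0.27 and 0.10, so no direction can be given for the mu constant region.

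Other probe sets with the Ighm symbol did not follow these. The 1452535_at set read 128 on the wild-type-labelled array and 3234 on the null-labelled array, a measured 25.2-fold difference. Its rank from the highest difference was 24 of the 24132 probe sets, and its log2 difference of 4.65 was the same under quantile normalization. With the floor at the 75th percentile the difference was 2.82 and only a bound. Against the 2 bright sets of the same symbol, which lie within 0.23 of 0, the difference of this one was far outside the 0.84 that covered 95% of probe set pairs. The 1427870_x_at set was dim on both arrays, at 211 and 133, with a log2 difference of -0.67. The remaining 7 Ighm probe sets lay below the floor on both arrays, between 3.68 and 47.8. The platform annotation gives the symbol and not the part of the transcript that a probe set reads. A rearranged heavy chain transcript holds a V segment as well as the constant region, and probe sequences were not used here.

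The V heavy segment with its own probe set was higher on the null-labelled array. Ighv14-2, a V segment that lies 39th of 183 V segments and V pseudogenes of the RefSeq GRCm38.p6 table, counted from the J segments, read 286 on the wild-type-labelled array and 1481 on the null-labelled array by 1455530_at, a 5.18-fold difference. Another 3 probe sets name Ighv14-2 together with Ighg3 and Ighm, and all 3 lay below the floor on both arrays, with no signal over 29.5. The bright reading of this segment thus rests on a single probe set. The only other heavy chain V segment named on the array, Ighv1-72, shares its probe set with Ighm, and that set read 27.8 and 16.2, below the floor. Of the 183 heavy chain V segments and pseudogenes in the RefSeq table, 2 are therefore represented by name, and the V segment used by either lymphoma may be one with no probe set.

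No switched isotype was detected. The 4 probe sets of Ighg3, the IgG3 constant region, and the 3 of Igha, the IgA constant region, were below the floor on both arrays. Their signals ran from 0.92 to 49.5 on the wild-type-labelled array and from 1.54 to 59.0 on the null-labelled array. The closest to the floor was 1429381_x_at of Igha, at 49.5 and 59.0. No probe set under the rule carried the symbol of Ighd, Ighe, Ighg1, Ighg2b or Ighg2c, so IgD, IgE and the other IgG subclasses are not analysed here. Being under the floor gives an upper limit on signal and not an absence of RNA.

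Kappa constant region RNA was bright on both arrays, and its sets read 1.43-fold to 2.06-fold lower on the null-labelled array. It was read by 3 probe sets, each annotated with the same 5 symbols, namely the constant region Igkc, the joining segment Igkj1 and the V segments Igkv6-23, Igkv4-53 and Igkv8-30. The 1427455_x_at set read 21231 on the wild-type-labelled array and 10308 on the null-labelled array, 2.06-fold lower on the latter. The 1427660_x_at set read 14181 and 9279.9, a 1.53-fold difference in the same direction. The 1452417_x_at set read 9803 and 6847, a 1.43-fold difference. All 3 lay on the same side, with log2 differences from -1.04 to -0.52, and they stood above 97.9% to 99.6% of probe sets. They share sequence and are not independent readings. Only the first reached 2-fold. All 3 exceeded the per-probe-set SD of 0.31, which covers probe set error only and not differences between lymphomas. Under quantile normalization the first did not reach 2-fold, at -0.77, with the others at -0.41 and -0.40. A further probe set, 1452557_a_at, carries the symbol of the whole locus, Igk, and read 498 and 289, a log2 difference of -0.78. The other 3 Igk sets lay below the floor on both arrays.

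Of the 22 probe sets with V kappa symbols alone, 14 lay below the floor on both arrays, 2 exceeded it only on the wild-type-labelled array, 5 only on the null-labelled array and 1 on each. Igkv6-14, the 15th of 162 V kappa segments and pseudogenes from the J segments, read 15877 on the wild-type-labelled array and 6.25 on the null-labelled array by 1427860_at, at least 255-fold lower on the latter. This was the lowest difference of all 24132 probe sets, and it kept that rank under each of the other floors and scalings, where the log2 difference lay between -5.12 and -10.1. Its neighbour Igkv6-15, whose probe set 1427859_at was designed on the same sequence record, read 183 and 1.57, at least 2.94-fold lower. Both segments are of the Igkv6 family, and neither was above the floor on the null-labelled array.

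Other probe sets that name Igkv6-14 did not show it. The 4 sets annotated with Igkv6-14 together with Igkv6-23, or with Igkv6-23 and Igkv8-19, lay below the floor on both arrays, between 2.00 and 61.3 on the wild-type-labelled array and between 11.1 and 50.8 on the null-labelled array. One of them, 1451965_at, was the member just under the floor, at 61.3. Igkv6-20, a further member of the family, read 23.4 and 29.0. The bright Igkv6 reading therefore stands on 1427860_at, with the dim 1427859_at on the same side.

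Igkv8-30 was bright on both arrays and unequal between them. Its own probe set, 1452463_x_at, read 18988 on the wild-type-labelled array and 2680.3 on the null-labelled array, a measured 7.08-fold difference. The segment is the 32nd from the J segments. Igkv8-30 is also among the 5 symbols of the kappa constant region sets, which differed by 1.43-fold to 2.06-fold. Since the probe set is marked as sharing sequence with other transcripts, it may read other kappa transcripts as well, and the share of each was not tested.

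The V kappa sets above the floor on the null-labelled array alone were dim. Igkv4-72 read 2.45 on the wild-type-labelled array and 187 on the null-labelled array by 1426201_at, at least 3.01-fold higher on the latter. Igkv4-68 read 2.51 and 101 by 1427857_x_at, at least 1.62-fold higher. A set that names Igkv4-55 and Igkv4-68 together read 49.4 and 81.9, at least 1.32-fold higher. The 3 probe sets with only Igkv4 segments were thus above the floor on the null-labelled array alone, although 2 of them did not reach 2-fold. The Igkv4-68 set is marked as sharing sequence with other transcripts. It was designed on the same sequence record as the sets of a V kappa segment of another family, the first given in the next paragraph. These readings are therefore not independent, and which segment the Igkv4-68 set reads was not tested. Of the 7 Igkv6 sets without a constant region symbol, 2 were above the floor only on the wild-type-labelled array and 5 on neither. Over all 45037 probe sets without controls, 3.49% were above the floor only on the null-labelled array and 3.68% only on the wild-type-labelled array. These counts are small and describe the 2 arrays only.

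The remaining V kappa sets were near or below the floor. Igkv19-93 read 21.6 and 85.4 by 1427855_at, at least 1.37-fold higher on the null-labelled array, and its second set read 1.10 and 7.52. Both Igkv19-93 sets share their sequence record with a probe set of the preceding paragraph, as stated there. Igkv9-120 read 51.3 and 68.6 by 1452536_s_at, the member just above the floor, and its other 2 sets stayed below it on both arrays. Igkv1-117, Igkv1-135, Igkv5-39, Igkv14-111, Igkv15-103 and the older symbol Igk-V21 were below the floor on both arrays. No V kappa set that was above the floor only on the null-labelled array exceeded 187.

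**Figure D2:**
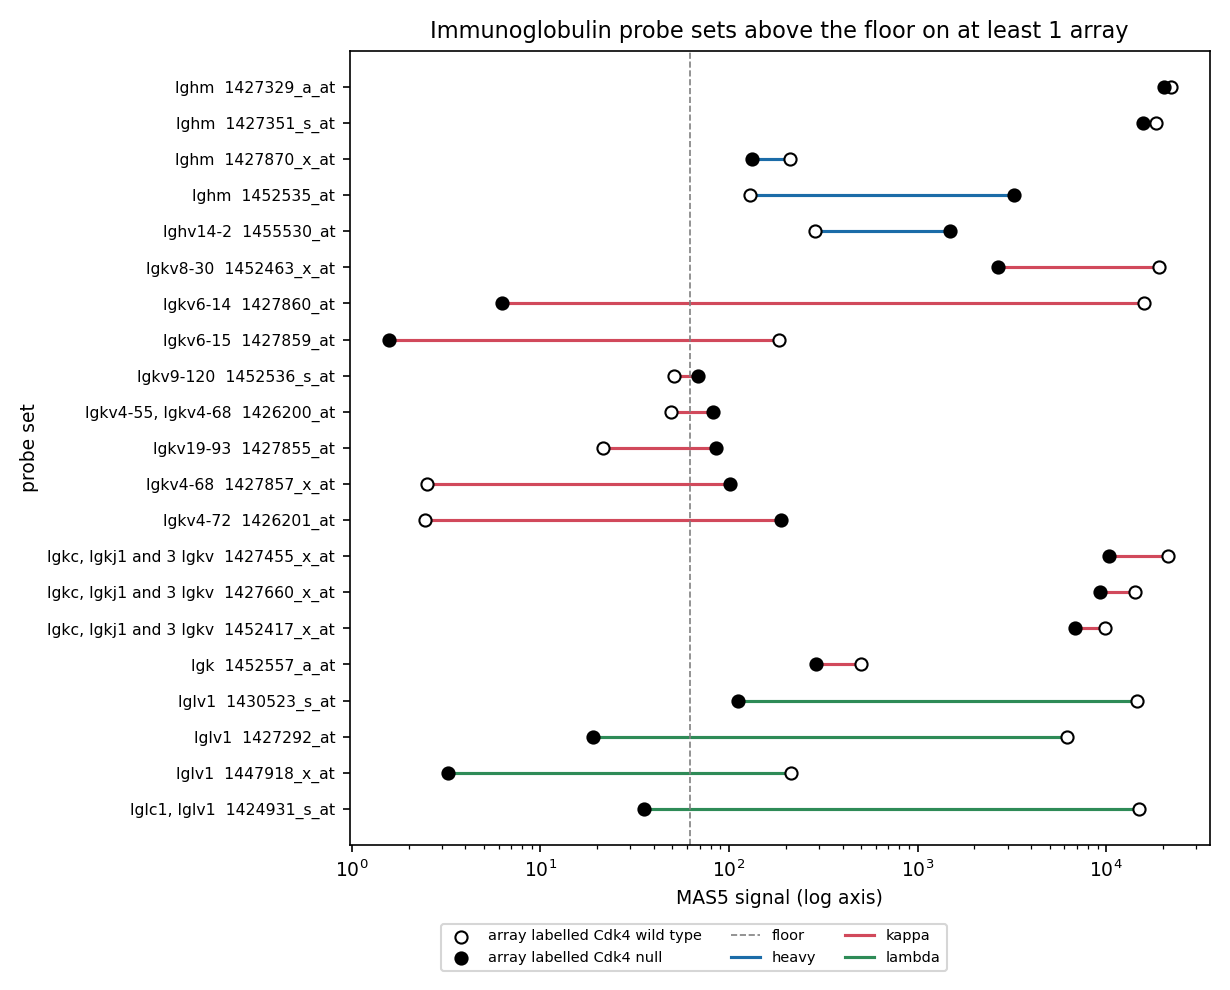
MAS5 signal (log axis) of the 21 immunoglobulin probe sets above the floor on at least 1 array, with an open circle for the wild-type-labelled array and a filled circle for the null-labelled array, joined by a line in the colour of the locus. The circles nearly coincide for the 2 bright Ighm sets, lie close for the 3 Igkc sets, and lie farthest apart for Igkv6-14 (15877 against 6.25) and the Iglc1, Iglv1 set (14840 against 35.5).

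**Figure D3:**
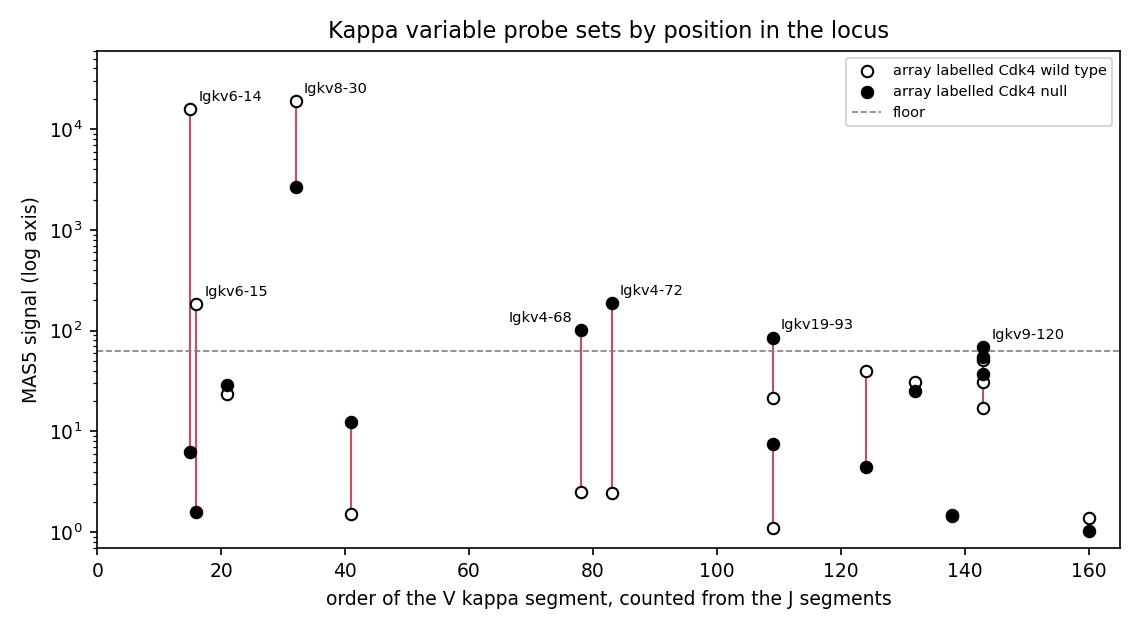
MAS5 signal (log axis) of the 16 probe sets that name 1 V kappa segment, against the order of that segment among the 162 V kappa segments and pseudogenes of the RefSeq table, counted from the J segments. The bright open circles of the wild-type-labelled array stand at positions 15 and 32 (Igkv6-14 and Igkv8-30). The highest filled circle, of the null-labelled array, also stands at position 32, at 2680. The probe sets above the floor only on the null-labelled array stand at positions 78 to 143 and reach no more than 187. The probe sets at positions 78 and 109 were designed on the same sequence record and are not independent readings.

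Lambda RNA was found at high signal on the wild-type-labelled array and near or below the floor on the null-labelled array. The mouse lambda locus is small, with 3 V segments in the RefSeq table, and Iglv1 with Iglc1 forms the lambda 1 chain. The set that names Iglc1 and Iglv1 together, 1424931_s_at, read 14840 on the wild-type-labelled array and 35.5 on the null-labelled array, at least 239-fold lower on the latter. Iglv1 read 14489 and 111 by 1430523_s_at, a measured 130-fold difference. It read 6210.0 and 19.1 by 1427292_at, at least 99.9-fold lower, and 212 and 3.25 by 1447918_x_at, at least 3.41-fold lower.

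All 4 lambda sets lay on the same side and above 2-fold, and 1427292_at carries no mark of shared sequence. With Igkv6-14, the 3 bright lambda sets took the lowest 4 differences of the 24132 probe sets. Under a lower floor 1430523_s_at ranked 6th, and with a pseudocount of 16 it ranked 5th. The other 2 lambda sets stayed within the lowest 4 under each other floor and scaling. The wild-type-labelled array thus held bright kappa and bright lambda signals side by side. A single culture cannot show whether these came from the same cells.

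Genes around the lambda locus did not show differences of the size seen in the lambda sets. Around the heavy chain locus, genes reached differences as large as those of the bright Ighm sets. None of the 10 nearest reached the 4.65 of 1452535_at (Ighm) or the 2.37 of 1455530_at (Ighv14-2). Around kappa, genes reached the size of the Igkc differences only in the opposite direction, higher on the null-labelled array. The median log2 difference of measured genes other than immunoglobulin genes was 0.004 over 353 genes of chromosome 12, which carries the heavy chain locus, 0.24 over 432 genes of chromosome 6 with kappa, and -0.09 over 315 genes of chromosome 16 with lambda. The 10 nearest measured genes around the lambda locus, among them Cdc45, Hira and Klhl6, ran from -0.16 to 1.02 with a median of -0.06, against -6.83 for the lambda sets. The 10 around kappa, among them Serbp1, Rpia and Eif2ak3, ran from -0.37 to 1.14 with a median of 0.22, which is the opposite side to the kappa constant region. Around the heavy chain locus the 10, among them Mta1, Crip1 and Ncapg2, ran from -0.56 to 1.74 with a median of 0.47.

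Among the partners of the immunoglobulin chains, Vpreb1 and Igll1 exceeded 2-fold and the others measured did not. Over all 10704 genes above the floor on at least 1 array, 5.75% were higher and 3.99% lower at 2-fold, around a median of 0.00087. Among the 6 receptor partners measured, 2 were 2-fold or more higher and 0 lower, and their median was 0.54. Cd79a and Cd79b, the signalling chains that carry membrane immunoglobulin, read 8121 against 9216 and 7191 against 7634. Vpreb1, which with Igll1 forms the surrogate light chain that pairs with mu before a light chain is made, read 129 against 4616, a 35.7-fold difference. Igll1 read 140 against 6291 by a shared probe set, while its unshared set read 67.6 against 20.5, near or below the floor. Vpreb3 read 4466 against 8370.0 and Fcmr, the IgM Fc receptor gene, 309 against 194. Jchain, the joining chain of secreted IgM and IgA, was below the floor on both arrays, at 45.4 and 21.7.

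The recombinase genes Rag1 and Rag2 stood above 2-fold and no other gene of their list did. In the list of recombination and class switching, 2 of 13 measured genes were 2-fold or more higher and 0 lower (median -0.03). The 2 were Rag1, at 499 against 1531, and Rag2, at 118 against 373, which together cut at the V, diversity and J segments. The end-joining ligase gene Lig4 read 1264 against 813, and the mismatch repair gene Msh6 read 3838 against 2240.5. Dntt, which adds untemplated bases at heavy chain joins, was below the floor on both arrays.

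Most transcription factors of the immunoglobulin loci differed by less than 2-fold, with more of them on the higher side. Of 19 measured genes, 13 were above 0, and the list median was 0.41, beside 0.00087 over all genes. At 2-fold, 2 of the 19 were higher and 0 lower, beside 5.75% and 3.99% of all genes. They were Irf8, at 2059 against 4743, a factor that works with Irf4 at light chain enhancers, and Pou2f2, which encodes the octamer factor OCT2, at 507 against 1072. The other 2 Pou2f2 probe sets differed by 0.86 and 0.44. Ikzf3, at 1647 against 3046, and Xbp1, at 1981 against 3663, did not reach 2-fold. Prdm1, the plasma cell regulator that promotes secretion, was below the floor on both arrays.

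Genes of secretion and heavy chain processing stood apart only singly. Among 10 measured genes 1 was higher and 1 lower at 2-fold (median 0.07). Hnrnpll, a splicing regulator that in plasma cells takes part in the switch of heavy chain RNA to its secreted form, read 1736 against 142, a 12.2-fold lower signal on the null-labelled array. Derl3, an endoplasmic reticulum degradation factor, read 179 against 660. Ell2, an elongation factor that favours the secreted form, read 185 against 365, and the chaperone gene Pdia4 read 819 against 1337. Of 9 plasma cell markers, Prdm1, Jchain and Tnfrsf17 were below the floor on both arrays, and the other 6 were above it on both. The summed signal of the list was 21863 and 21037 and rested mostly on Mzb1, at 11639 and 11415. Irf4 read 6590 against 3734, Xbp1 1981 against 3663, Sdc1 993 against 1106 and Fkbp11 350 against 383. Of the 6, only Derl3 reached 2-fold.

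**Figure D4:**
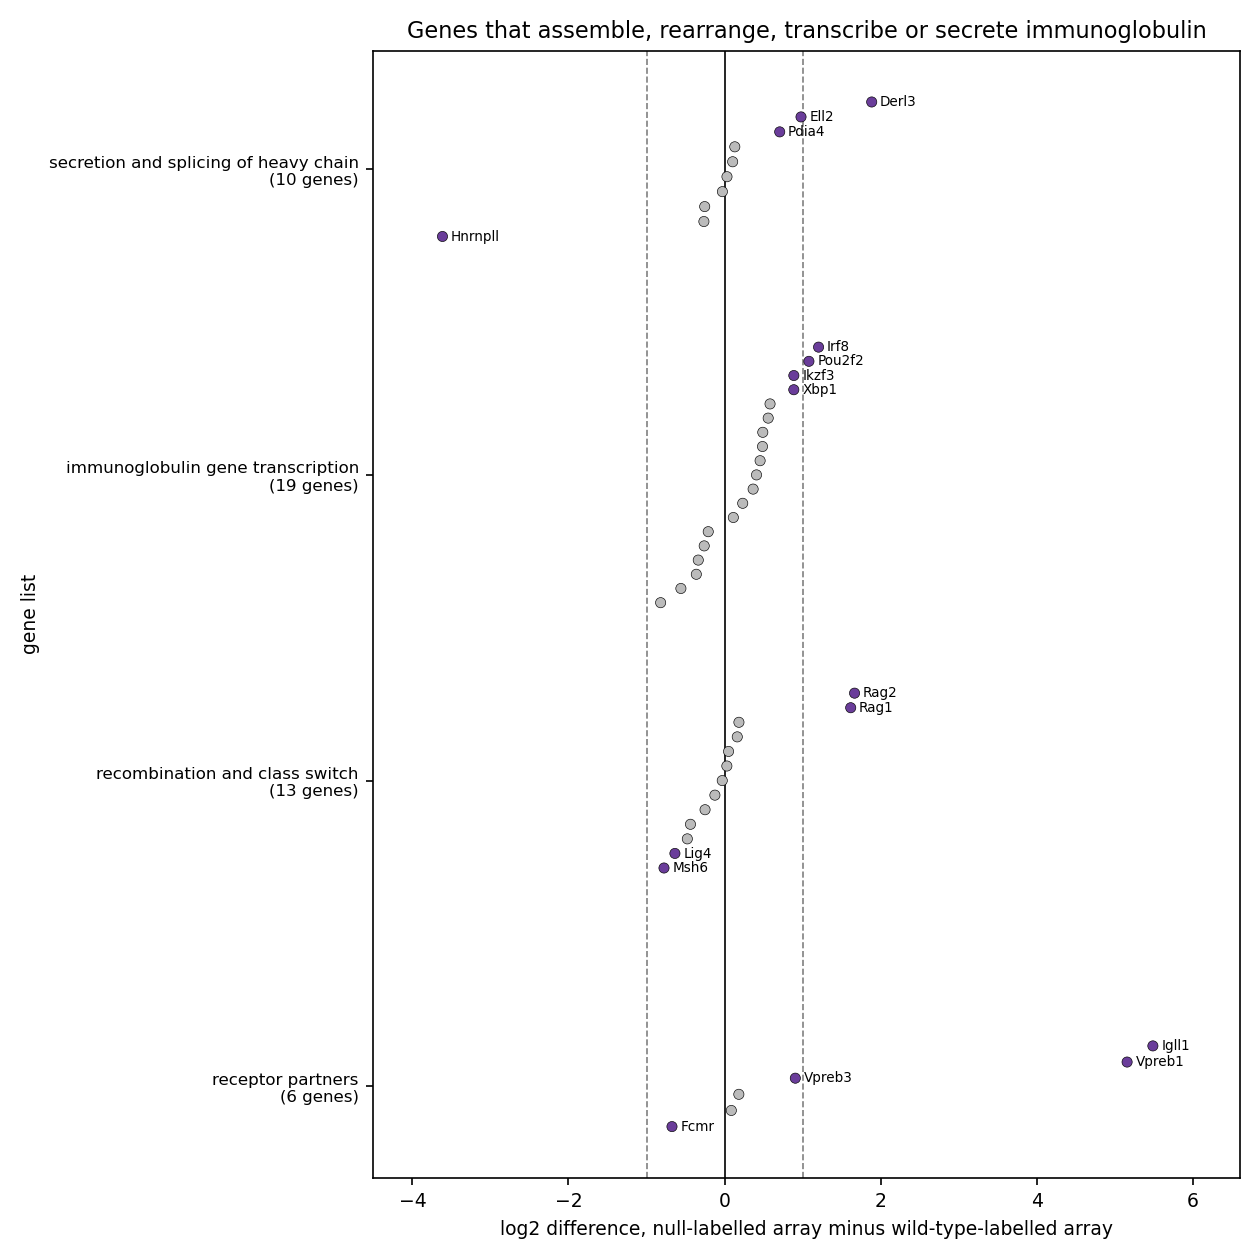
Log2 difference (null-labelled array minus wild-type-labelled array) of each measured gene in 4 lists, 1 point a gene, with the 4 largest differences of each list named and dashed lines at 2-fold. Igll1 and Vpreb1 lie above 5, Hnrnpll lies at -3.61, and most other genes lie between the dashed lines.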

How the data were processed

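The authors deposited 1 table of signal intensity, which per the submitters' processing notes come from MAS5, with 45101 probe sets on each of 2 arrays. The MAS5 version and its detection calls were not used here. The mean after trimming 2% from each end was 500.003 on both arrays as deposited, so rescaling to 500 changed little. Values below the floor of 62.2 were set to it before log2. Gene names came from GEO's platform annotation, in which 13 of the 56 immunoglobulin probe sets have several symbols. Of 28 immunoglobulin symbols, 27 are in the RefSeq table of GRCm38.p6, used only for chromosomes and gene order. No test was run, because each group holds 1 array, and precision is limited by this number of arrays. Named were all constant, joining and whole-locus sets above the floor, the 6 V sets of each locus with the largest differences and highest signals, sets above the 95th percentile, and 4 genes of each companion list. Other genes are given as examples, chosen after their values were seen. The members and lists were chosen with earlier results of these data known. Of genes outside the members, the brightest probe set with 1 symbol stood for the gene, and list genes without one are not analysed here. Python 3.11.15, numpy 2.4.6 and pandas 2.3.3 were used, and the calculation was tested on simulated data.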

Additional observations from a re-analysis of the deposited data

How the results depend on the processing

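The 2 arrays allow no error between lymphomas, and the counts of probe sets depend on the floor. When the floor was lowered to the 25th percentile, 38 immunoglobulin probe sets were above it on the wild-type-labelled array and 39 on the null-labelled array, 8 were higher by 2-fold, and the medians were -0.0089 for kappa and -7.69 for lambda. When it was raised to the 75th percentile, 8 were above it on the null-labelled array, and the medians were 0.78 for the heavy chain and -4.98 for lambda. Quantile normalization turned the heavy chain median to 0.27. A pseudocount of 16 gave 5 higher probe sets and a lambda median of -7.15. Without shared probe sets, 5 were above the floor on each array and 3 were lower by 2-fold, and the medians were 3.51 for the heavy chain and 0.40 for kappa, since the bright Ighm and Igkc sets are shared ones. The heavy chain and kappa medians thus depend on which sets are counted, while the lambda median was below 0 under each of the 7 alternatives. Subtracting chromosome medians has no bearing on the floor counts, which were not recomputed for it. No paired analysis was possible because each group holds 1 array and the result comes from no test.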
